A study of Mus musculus with 8 samples.

Results

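The interferon-induced transmembrane proteins, encoded by the Ifitm genes, were followed in Ly-6C-high monocytes of mouse blood and spleen through Ifitm1, Ifitm2, Ifitm3 and Ifitm6. All probes that the array names for these 4 genes were taken, which gave 5 of the 41174 probes on the array. Ifitm2 has 2 probes and each of the others has 1. Ifitm1, Ifitm2 and Ifitm6 were among the 18266 genes tested out of 28786 gene names, and Ifitm3 was not tested, because it had a value in only 1 blood sample. Ly-6C-high monocytes are circulating phagocytes with much of the surface antigen Ly-6C. They were sorted from healthy, untreated female C57BL/6 mice, an inbred strain, aged 8 to 12 weeks and fed chow. The 4 blood and 4 spleen samples came from a group of 4 mice, and no group carries a transgene or a treatment. Each sample was a bulk sort of 1000 cells high for CD11b and Ly-6C. The gate left out cells with Ly-6G, a neutrophil antigen, with CD90, B220, CD49b or NK1.1, which mark lymphoid cells, or with much F4/80, CD11c or I-Ab. From each, 5 ng of RNA with an integrity number of at least 8 was amplified, labelled with Cy3 and hybridized to a 1-colour Agilent array.

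Ifitm proteins are short proteins of the plasma membrane and of endosomes that hinder the fusion of many enveloped viruses, influenza virus among them, with the membranes of the cell. Ifitm3 acts mainly in endosomes and is the best studied member, Ifitm2 is its close relative, Ifitm1 lies more at the cell surface, and Ifitm6 is known from cells of the myeloid lineage. Interferons raise their transcripts through receptors, Jak kinases and Stat and Irf factors that bind a DNA element called ISRE or one called GAS. Many cells also hold Ifitm transcripts without infection.

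The member genes lie in a cluster on chromosome 7, in the RefSeq order Ifitm5, Ifitm2, Ifitm1, Ifitm3 and Ifitm6. On the build of the array's design, mm7, the Ifitm1 probe lies at chr7:137386819-137386878 on the plus strand. On the minus strand, the first Ifitm2 probe lies at chr7:137372276-137372335, the Ifitm3 probe at chr7:137426955-137427014 and the Ifitm6 probe at chr7:137433078-137433137. The other Ifitm2 probe is placed elsewhere on the chromosome, at chr7:43008745-43008804 on the plus strand. There it overlaps a probe that the array names LOC384622, at chr7:43008714-43008773, by 29 bases. No exon or untranslated region annotation of mm7 was used here. Of the probes, 4 are printed because they show what each Ifitm signal could capture, with capitals marking a stretch of 27 bases shared by the second Ifitm2 probe and the LOC384622 probe.
Ifitm1 A_52_P541802: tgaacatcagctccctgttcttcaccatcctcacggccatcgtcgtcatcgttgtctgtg
Ifitm2 A_51_P168459: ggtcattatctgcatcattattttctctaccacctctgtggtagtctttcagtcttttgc
Ifitm2 A_52_P559618: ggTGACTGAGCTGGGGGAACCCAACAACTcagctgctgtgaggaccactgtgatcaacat
LOC384622 A_52_P437066: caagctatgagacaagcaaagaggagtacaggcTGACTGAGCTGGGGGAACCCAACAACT
Over their 29 overlapping bases the last 2 probes differ by 1 substitution, G2C, counted from the 5′ end of the Ifitm2 probe. No other pair among the Ifitm and LOC384622 probes shared more than 8 bases in a row. The second Ifitm2 probe may therefore read transcripts of a near-identical copy, and its values are uncertain as a measure of Ifitm2 alone. Probes were compared only with each other, so whether any of them reads transcripts of another family member was not tested.

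Promoter windows of RefSeq (GRCm38.p6), from 250 bases before to 50 bases after each gene's start, were searched on both strands for the letters of an ISRE (GAAA, any 2 bases, GAAA) and of a GAS element (TTC, any 3 bases, GAA). The ISRE letters occurred in 1131 of 32851 promoters (3.44%) and the GAS letters in 2726 (8.3%). The windows that hold a match are printed with the match in capitals, to show which members carry these letters.
Ifitm2 ISRE, chr7:140955988-140956017, minus strand: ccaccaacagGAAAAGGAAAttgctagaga
Ifitm3 ISRE, chr7:141010723-141010752, minus strand: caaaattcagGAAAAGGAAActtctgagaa
Ifitm3 ISRE, chr7:141010706-141010735, minus strand: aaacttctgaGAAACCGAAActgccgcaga
Ifitm3 GAS, chr7:141010712-141010741, minus strand: aaaaggaaacTTCTGAGAAaccgaaactgc
Ifitm6 GAS, chr7:141016883-141016912, minus strand: ccatatgaacTTCCTTGAAacaagagcttc
The Ifitm2 match runs from base -46 to -37 relative to the start. The Ifitm3 matches lie just after the start, at 3 to 12 and 20 to 29 for ISRE and at 14 to 22 for GAS, and the GAS letters overlap the ISRE match at 20 to 29. The Ifitm6 GAS match runs from -10 to -2. The ISRE letters were not found in the Ifitm1 and Ifitm6 windows, nor the GAS letters in those of Ifitm1 and Ifitm2. A match is a description of the letters in the window and shows no binding.

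All values are log2 values of the authors' value table unless the scanner files are named, and every difference is spleen minus blood on that scale. On an array the levels of different probes cannot be ranked against each other, so each probe was compared only with itself across samples. A background level of 6.8 was set from the scanner software's own background test. All 5 Ifitm probes lay above it wherever they had a value, were well above background in all 8 scanner files and were saturated in none. For blood 1, blood 2 and blood 3, the scanner file and the table column come from different arrays (rank correlations 0.842, 0.852 and 0.872, against 1 for each of the other 5). Results from those files are given separately. Each p-value reflects only scatter among these 8 samples, and the limma test, used below, also draws on the scatter of all tested genes. The samples of both tissues came from a group of 4 mice, but no label ties a sample number to a mouse. The defining monocyte genes were far above the background level in both tissues. Itgam (CD11b) averaged 12.11 in each, Csf1r, through which monocytes receive their growth factor, 13.14 in blood and 13.3 in spleen, and Ccr2, the receptor for exit from bone marrow, 14.1 and 13.68.

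Transcripts of the 3 testable members were present in every sample with a value, and none passed the test between the tissues. Ifitm6 was 0.46 higher in spleen, Ifitm1 0.18 lower on the log2 scale and Ifitm2 0.17 lower, with overlapping samples for each. None of the 3 passed an adjusted p of 0.05 in limma with Benjamini-Hochberg adjustment over all 18266 genes, where 0% of genes passed. At an unadjusted p under 0.05 none of the 3 was called either, against 5.43% of all genes (992). None of them passed the adjusted threshold in any alternative setting run, scanner files included. The samples of the tissues did not overlap for 3.3% of all genes (602), with spleen above blood for 1.88% and below it for 1.41%, and for none of these 3.

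**Figure D1:**
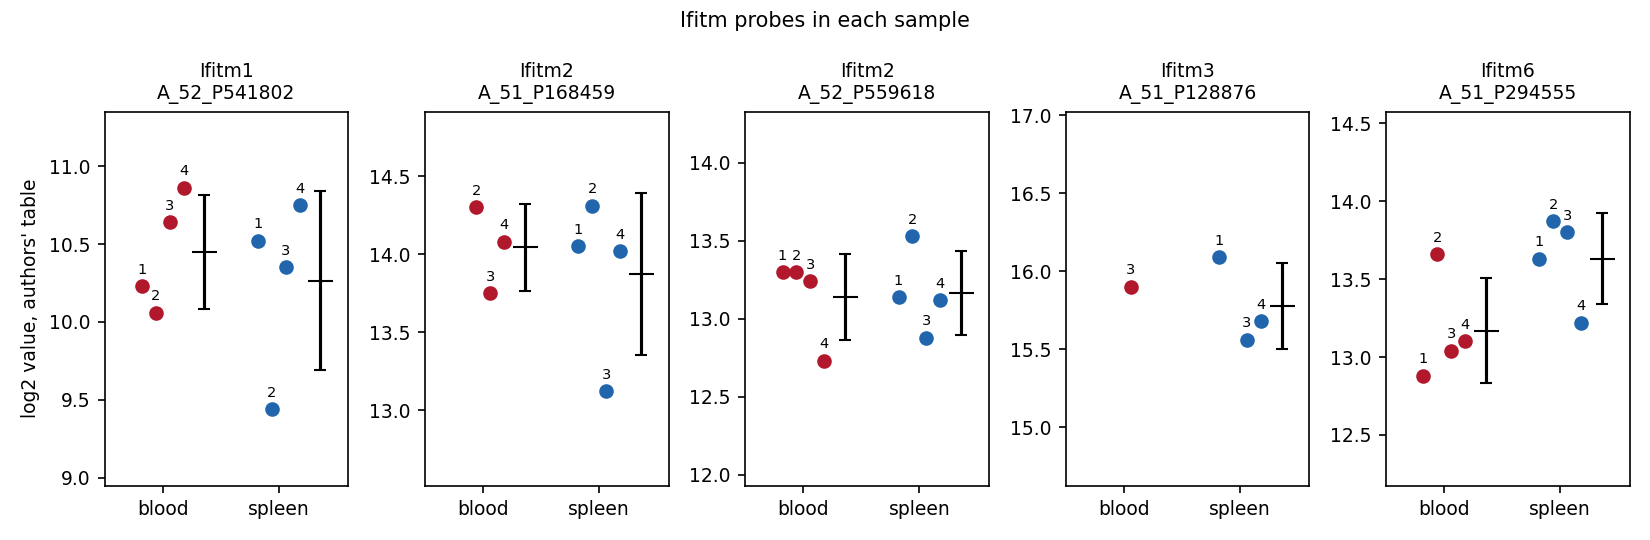
Log2 values of the 5 Ifitm probes in the authors' table (vertical axis, each panel spanning 2.4 log2 units around its own probe), for blood samples (red) and spleen samples (blue) numbered 1 to 4, with bars for the mean and SD beside them where a tissue has more than 1 value. The samples of the tissues overlap for every probe, Ifitm6 is lowest in blood 1 at 12.88, and Ifitm3 has 1 value in blood.

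Ifitm3, the endosomal member, had values of 16.09, 15.56 and 15.68 in spleen 1, spleen 3 and spleen 4 and of 15.9 in blood 3. Its cells in the table were empty for blood 1, blood 2, blood 4 and spleen 2. In the scanner files of blood 4 and spleen 2, which match the table, the spot's local background was marked as an outlier. The spleen mean was 15.78 ± 0.28 (SD, n = 3), so the only blood value lay inside the spleen range. The difference of -0.12 rests on 1 blood value and has no test of its own. When genes with at least 1 value per tissue were admitted, a choice made after the data were examined, limma gave -0.12 ± 0.42 (SE) with a 95% interval from -1.17 to 0.92 and an adjusted p of 1. The scanner files hold a signal for every sample. As log2 signal minus the 75th percentile of the array, Ifitm3 was 6.83 in blood 4 and 6.86, 6.88, 6.95 and 6.48 in spleen 1 to spleen 4. Blood 4 thus lay within the spleen range there too. Over these 5 matching files the difference was -0.04.

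Ifitm2, the close relative of Ifitm3, was read by the probe at its own locus at 14.3, 13.75 and 14.08 in blood 2, blood 3 and blood 4, with an empty cell for blood 1. The same probe gave 14.05, 14.31, 13.12 and 14.02 in spleen 1 to spleen 4. Spleen 3 was the lowest sample, and the other spleen samples lay within 0.01 of the blood range or inside it. The means were 14.05 ± 0.27 (SD, n = 3) and 13.87 ± 0.52 (SD, n = 4). The difference was -0.17 ± 0.32 (SE) with a 95% interval from -0.91 to 0.57 and an adjusted p of 1 in limma. An exact two-sided permutation test over the 35 splits of these 7 values gave p = 0.771, where the smallest p it allows is 0.0286. Without spleen 3 the difference was 0.08, so its sign rests on that sample.

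The other Ifitm2 probe, which shares sequence with the LOC384622 probe, had values of 13.3, 13.3, 13.24 and 12.73 in blood 1 to blood 4. In spleen 1 to spleen 4 it had 13.14, 13.53, 12.88 and 13.12. Blood 4 was the lowest of all 8 samples and spleen 2 the highest. The means were 13.14 ± 0.28 (SD, n = 4) and 13.17 ± 0.27 (SD, n = 4), and the difference was 0.02 ± 0.24 (SE; 95% interval -0.51 to 0.56; exact two-sided permutation p = 0.943). The Ifitm2 probes thus gave differences of opposite sign, each smaller than its SE. The LOC384622 probe had 11.85, 11.85, 12.25 and 11.77 in blood and 11.85, 12.35, 11.62 and 11.86 in spleen. Spleen 2 was the highest and spleen 3 the lowest spleen sample for all 3 of these probes.

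Ifitm1, the cell-surface member, had values of 10.23, 10.06, 10.64 and 10.86 in blood 1 to blood 4. In spleen 1 to spleen 4 it had 10.52, 9.44, 10.35 and 10.75. Spleen 2 was the lowest of the 8, below every blood sample, and the other 3 spleen samples lay inside the blood range. The means were 10.45 ± 0.37 (SD, n = 4) and 10.27 ± 0.58 (SD, n = 4). The difference was -0.18 ± 0.32 (SE) with a 95% interval from -0.9 to 0.54 and an adjusted p of 1 in limma. The exact two-sided permutation test over 70 splits gave p = 0.686, with 0.0286 as the smallest p possible. Without spleen 2 the difference was 0.1, so its sign rests on that sample.

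Ifitm6, the myeloid member, had values of 12.88, 13.66, 13.04 and 13.1 in blood 1 to blood 4. In spleen 1 to spleen 4 it had 13.63, 13.87, 13.8 and 13.22. Blood 2 lay among the spleen samples, and spleen 4 lay below blood 2, while the other 3 blood samples were below every spleen sample. The means were 13.17 ± 0.34 (SD, n = 4) and 13.63 ± 0.29 (SD, n = 4). The difference was 0.46 ± 0.25 (SE) with a 95% interval from -0.1 to 1.02, an unadjusted p of 0.0973 and an adjusted p of 0.975 in limma. The exact two-sided permutation test gave p = 0.0857. Leaving out each sample in turn kept the difference above 0, from 0.36 without blood 1 to 0.62 without blood 2, with adjusted p of 0.892 or more. The unadjusted limma p was 0.0316 without blood 2 and 0.0482 without spleen 4. Its size exceeded that of 79.4% of all tested genes, against 46.2% for Ifitm1 and 44.3% for Ifitm2.

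The intervals show how far the tissues could differ under a given fit. In the main test the 95% interval for Ifitm1 and Ifitm2 lay within a change of 1 on the log2 scale either way. The same held for 55.1% of all genes, and for Ifitm6 the interval reached just past 1, at 1.02. With 1 sample left out, the interval reached down to -1.11 for Ifitm1 (without spleen 4) and to -1.19 for Ifitm2 (without blood 3). A change larger than 1 is thus not excluded. The SD within a tissue was 0.48 for Ifitm1, 0.44 for Ifitm2 and 0.32 for Ifitm6, around the median of 0.45 over all genes. Blood 4 and spleen 4 were hybridized on the same slide. Between them the difference was -0.1 for Ifitm1, -0.06 for Ifitm2 at its own locus, 0.38 for the other Ifitm2 probe and 0.11 for Ifitm6. No other slide held table arrays of both tissues as far as the files show.

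**Figure D2:**
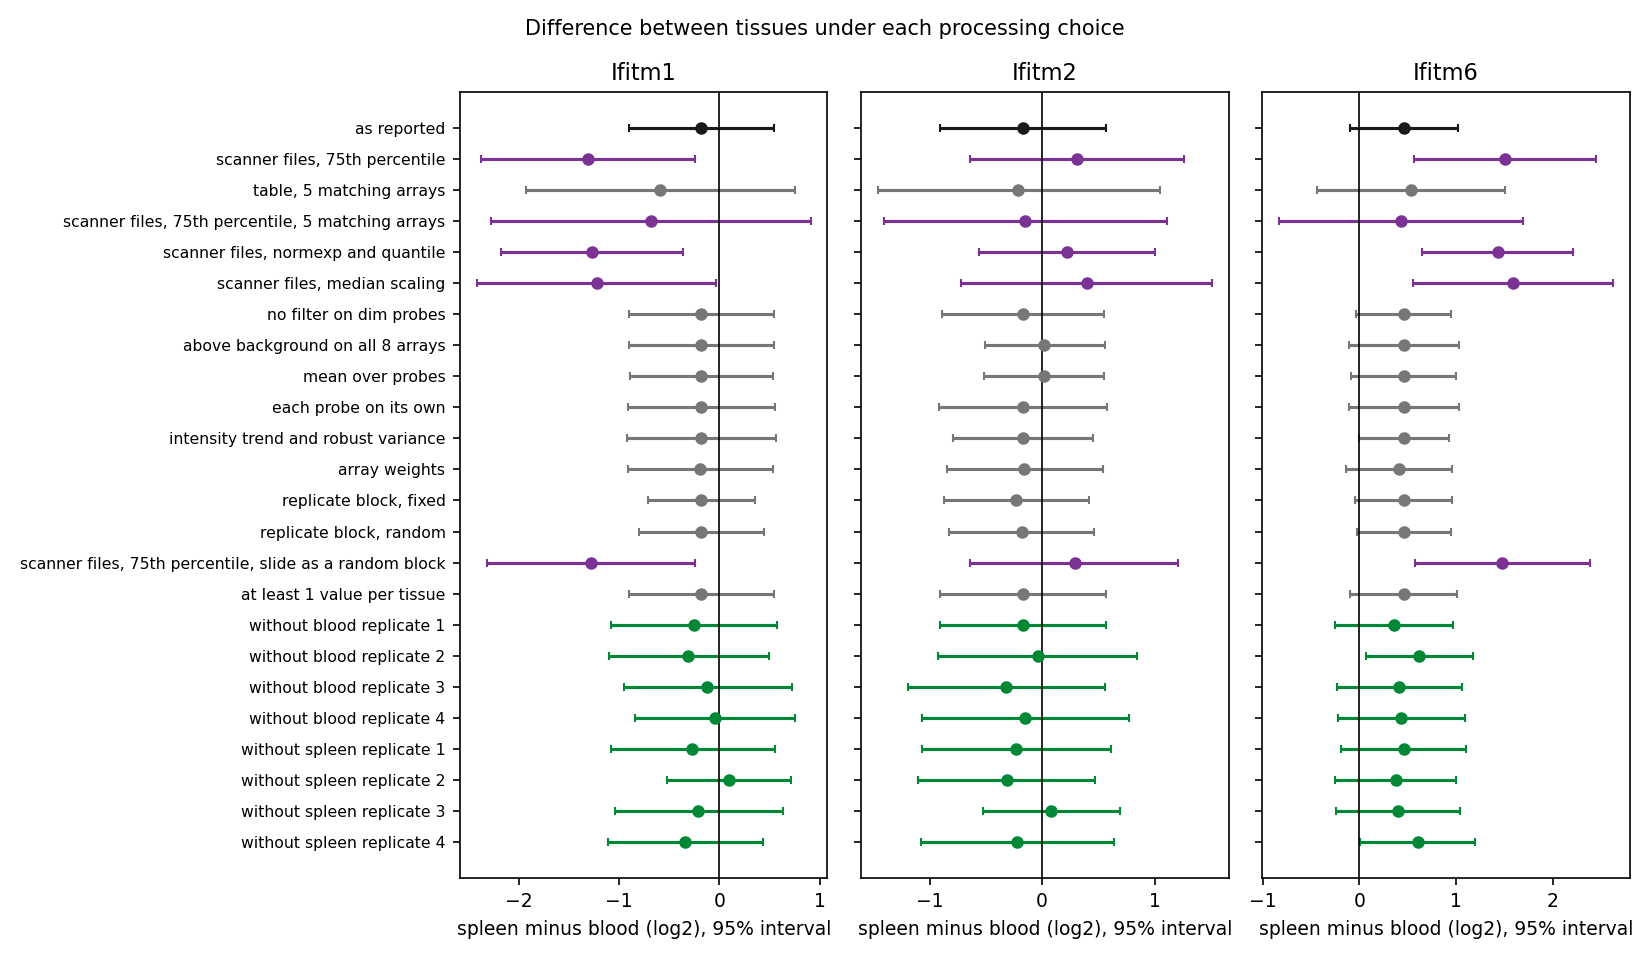
Difference between spleen and blood (horizontal axis, log2) with its 95% interval for Ifitm1, Ifitm2 and Ifitm6, as reported (black), under other settings of the authors' table (grey), with each sample left out (green) and from the scanner files (purple). Ifitm6 lies above 0 in all 23 alternatives, while Ifitm1 and Ifitm2 cross 0, and the scanner settings with all 8 files give -1.31 to -1.22 for Ifitm1 and 1.43 to 1.59 for Ifitm6.

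The members did not vary together over the arrays. Pearson's r was -0.6 between Ifitm1 and Ifitm6 over 8 arrays, -0.31 between Ifitm1 and Ifitm2 over 7 and -0.03 between Ifitm6 and Ifitm2 over 7. Spleen 2 shows this in its values, being the lowest sample for Ifitm1 and the highest for Ifitm2 and Ifitm6. Among 11427 genes with a range of at least 1 on the log2 scale, those most like Ifitm6 over the 8 arrays were Slamf7 (r = 0.97), a receptor of the SLAM family, Jpt2 (0.95), 6720470G18Rik (0.95), C630028L02Rik (0.94) and Unc45a (0.93), a myosin chaperone. Those most like Ifitm1, among 11426, were Rnf141 (0.97), Reps1 (0.96), Olfr430 (0.95), LOC328277 (0.95) and 4930544G11Rik (0.95). These points share their arrays and their normalization, and the genes were picked as the most alike of many, so the values are a description. Ifitm2 and Ifitm3 lack values on some arrays and were not ranked.

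The array also holds Ifitm5, Ifitm7 and Ifitm10. Ifitm5, a protein of bone-forming cells, lies at the end of the cluster (chr7:137367313-137367372, minus strand). It had values of 8.73, 7.91, 7.58 and 8.27 in blood and of 8.21, 7.58 and 8.07 in spleen 2 to spleen 4. Its samples overlapped, with means of 8.12 ± 0.49 (SD, n = 4) and 7.95 ± 0.33 (SD, n = 3) and an exact two-sided permutation p of 0.629. Ifitm7, which lies apart on chromosome 16, had table values only in spleen 3 (15.24) and spleen 4 (15.26). Its scanner signal minus the array's 75th percentile was 6.59 in blood 4 and 6.42, 6.56, 6.65 and 6.21 in spleen 1 to spleen 4, so blood 4 lay within the spleen range, with 1 blood array. Ifitm10, which the array lists as 6330512M04Rik, lay below the background level of 6.8 on all 8 arrays, from 6.17 to 6.74 in blood and from 6.23 to 6.34 in spleen. It was well above background in 0 of the 8 scanner files. Of 7 listed family genes, 4 were tested, with 1 higher and 3 lower in spleen and none past the threshold. Of all genes, 48.8% were higher and 51.2% lower. The family's median was -0.17 beside -0.008 over all genes.

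The genes that receive and relay the interferon signal to Ifitm promoters were present in both tissues, and none passed the adjusted threshold. All 20 listed receptor and signalling genes were tested, and 6 were higher and 14 lower in spleen, against 48.8% and 51.2% of all genes. Their median was -0.12 in the table (-0.21 to 0.02 over its other settings). With all 8 scanner files it was 0.36 to 0.51, and with the 5 matching files alone, which hold 1 blood array, -0.01. The medians from all 8 files thus rest on the 3 blood files that do not match the table. The receptor chains Ifnar1 and Ifnar2 differed by -0.11 ± 0.26 and -0.27 ± 0.29 (SE), and Ifngr1 by 0.17 ± 0.22. At an unadjusted p under 0.05, 3 of the 20 were lower and 0 higher, against 2.34% and 3.09% of all genes. Of these 3, Irf7, the factor that amplifies interferon production, averaged 12.06 ± 0.42 in blood and 10.93 ± 0.76 in spleen (SD, n = 4 each; difference -1.13, limma adjusted p = 0.733). The others were Usp18, which restrains the receptor, at -0.79 (adjusted p = 0.839), and Stat2, a factor that drives ISRE genes, at -0.71 (adjusted p = 0.906). In the opposite direction, Socs3, an inhibitor of cytokine signalling, differed by 0.46, Irf3, a factor activated by viral RNA and DNA sensors, by 0.41, and the receptor kinase Jak1 by 0.3, each with an adjusted p of 1.

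Other interferon-induced restriction factors were mostly lower in spleen in the table, without any past the adjusted threshold. Of 38 listed genes, 36 were tested. By the table, 31 of them were lower and 5 higher, against 51.2% and 48.8% of all genes. Their median was -0.32 there and 0.81 to 1.19 with all 8 scanner files. With the 5 matching files alone, which hold 1 blood array, it was -0.36. The medians from all 8 files thus rest on the 3 blood files that do not match the table. At an unadjusted p under 0.05, 6 were lower and 0 higher, against 2.34% and 3.09% of all genes. Isg20, an interferon-induced exonuclease, averaged 10.89 ± 0.48 in blood and 9.09 ± 0.92 in spleen (SD, n = 4 each), a difference of -1.8 without overlap of samples (limma adjusted p = 0.505). Oas3, an oligoadenylate synthetase, differed by -1.19 (adjusted p = 0.834), and Ifit2, of the interferon-induced tetratricopeptide proteins, by -1.18 (adjusted p = 0.96). Including Isg20, 4 of the 36 had every spleen sample below every blood sample, against 1.41% of all genes. The others, named after their values were seen, were Ifi35 at -1.09, Mx1 at -0.98 and Trim30a at -0.38. The highest differences were 0.36 for Apobec3, a cytidine deaminase, and 0.25 and 0.24 for the interferon-induced GTPases Gbp2 and Gbp5, each with an adjusted p of 1. Against these genes Ifitm1 and Ifitm2 differed by -0.18 and -0.17, and whether a member differed from them was not tested.

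The proteins known to modify or bind Ifitm3 were measured as well. All 10 listed genes were tested, with 6 higher and 4 lower in spleen, against 48.8% and 51.2% of all genes. None passed the adjusted threshold. Their median was 0.07 in the table and 0.16 to 0.3 with all 8 scanner files. With 1 sample left out it ran from -0.03 without blood 4 to 0.17 without blood 2, so its direction rests on blood 4. Zmpste24, a membrane protease that works with Ifitm proteins against viruses, averaged 8.63 ± 0.52 in blood and 9.49 ± 0.6 in spleen (SD, n = 4 each), a difference of 0.86 with an unadjusted p of 0.0399 and a limma adjusted p of 0.867. The ubiquitin ligase Nedd4 differed by 0.48 and the demethylase Kdm1a by 0.38. The signal peptide peptidase Hm13, at -0.54, had every spleen sample below every blood sample (limma adjusted p = 0.932), as had 1.41% of all genes. At an unadjusted p under 0.05, 1 of the 10 (Zmpste24) was higher and 0 lower, against 3.09% and 2.34% of all genes. The palmitoyltransferase Zdhhc20 differed by -0.18, and the methyltransferase Setd7 and the membrane contact protein Vapa by -0.01 each.

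**Figure D3:**
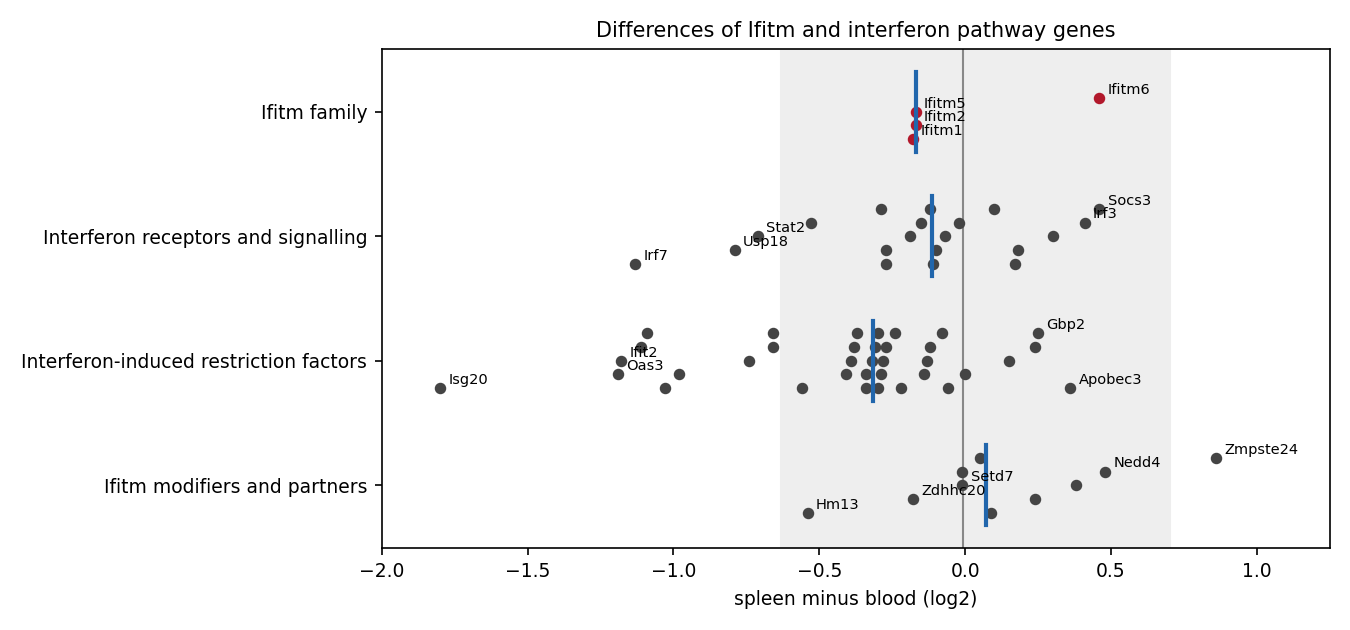
Difference between spleen and blood (horizontal axis, log2) of each tested gene in 4 lists: the Ifitm family (red), interferon receptors and signalling genes, interferon-induced restriction factors, and Ifitm modifiers and partners. Blue bars are list medians (-0.17, -0.12, -0.32 and 0.07), the grey line is the median of all genes (-0.008), the shaded band runs from their 5th to their 95th percentile (-0.63 to 0.7), and all 4 tested family genes lie inside it.

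Genes next to the cluster on chromosome 7, a list added after values had been seen, gave 1 higher and 5 lower of 6 tested, with a median of -0.16 and none past the threshold. They ran from -0.69 ± 0.64 (SE) for Pkp3, a desmosome protein, to 0.01 ± 0.39 for Sigirr, an inhibitor of interleukin-1 family receptors.

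Some markers of other cells moved with tissue and stand beside the Ifitm6 difference. In bulk samples fewer cells of a type and less RNA per cell cannot be told apart. The mean level of 13 neutrophil and granule genes was 7.48 to 8.47 in blood and 9.84 to 10.6 in spleen, without overlap. Of the 13 tested genes, 12 were higher in spleen, against 48.8% of all genes. Their differences were uneven, at 5.57 for S100a8, 5.54 for Ltf and 5.57 for Camp. Csf3r at 0.03, Prtn3 at 0.13 and Mmp8 at -0.08 differed little, and their samples overlapped. Among the blood samples, blood 2 had the lowest neutrophil level, 7.48, and the highest value of Ifitm6, 13.66. Between the tissues both were higher in spleen, with Ifitm6 means of 13.17 in blood and 13.63 in spleen. Whether the neutrophil level and Ifitm6 go together was not tested. The lists that follow did not overlap either, each higher in spleen. Proliferation genes ran from 8.07 to 8.56 in blood and from 9.4 to 10.75 in spleen, Ly-6C-low monocyte markers from 9.81 to 10.1 and from 10.19 to 10.97, and red pulp macrophage markers from 8.22 to 8.57 and from 8.8 to 9.34. In that order, 13 of 14, 8 of 10 and 6 of 7 tested genes were higher in spleen, against 48.8% of all genes. Plk1 at -0.01, Cd36 at -0.54, Cx3cr1 at -0.07 and Hmox1 at -0.03 were lower. The largest differences were 1.8 for Itgax and 1.68 for Pglyrp1 among Ly-6C-low markers, and 2.31 for Vcam1 and 1.48 for Spic among red pulp markers. Samples of the other tested red pulp genes overlapped. Ly-6C-high monocyte markers overlapped, from 11.74 to 12.01 in blood and from 11.39 to 12.08 in spleen. So did the platelet, B cell, T cell, NK cell, dendritic cell, basophil and erythroid lists. Ccr2, of the Ly-6C-high list, lacks a value in 1 spleen sample and so is not in its level. Its blood mean was 14.1 ± 0.26 (SD, n = 4) and its spleen mean 13.68 ± 0.23 (SD, n = 3), without overlap (limma unadjusted p = 0.127). Spleen lay below blood without overlap for 1.41% of all genes. Samples of the other tested genes of the Ly-6C-high list overlapped. Platelet markers ran from 9.27 to 10.52 in blood and from 8.78 to 9.34 in spleen, and 5 of 8 basophil and mast cell markers were below background on all arrays. Hdc, the histamine-forming enzyme of that list, lacks a value in 1 spleen sample and so is not in its level. Its blood mean was 7.37 ± 0.94 (SD, n = 4) and its spleen mean 9.81 ± 1.29 (SD, n = 3), without overlap (unadjusted p = 0.00611, limma adjusted p = 0.631). Spleen lay above blood without overlap for 1.88% of all genes. The other tested members of that list went the other way, Fcer1a at -0.06 and Prss34 at -0.44, and the list's median was -0.06. The part of any of these cells in the Ifitm values was not tested.

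The 3 blood scanner files that do not match the table gave other Ifitm values than the 5 matching files, on the scale of log2 signal minus the array's 75th percentile. For Ifitm6 they gave 3.08, 2.84 and 2.86, while blood 4 had 4.35 and spleen 1 to spleen 4 had 4.72, 4.83, 5.18 and 4.4. All 3 thus lay below all 5, as they did for 5.51% of 29246 probes. For Ifitm1 they gave 3.53, 3.27 and 2.06, against 2.12 in blood 4 and 1.8, 0.58, 1.56 and 1.81 in spleen. Only the first 2 lay above all 5 matching files, while 5.06% of probes had all 3 above. Ifitm3 in these files was 6.52, 5.99 and 5.35, and only the first lay within the range of the matching files. Their means stood 1.77 below those of the matching files for Ifitm6 and 0.85 below for Ifitm3, and 1.38 above for Ifitm1. The sources used here do not state what these 3 arrays held.

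With all 8 scanner files used under their labels, the differences between tissues were 1.43 to 1.59 for Ifitm6 and -1.31 to -1.22 for Ifitm1 over 4 settings. The lowest limma adjusted p-values were 0.47 and 0.516. Unadjusted, the limma p-values ran from 0.00267 to 0.00709 for Ifitm6 and from 0.012 to 0.0455 for Ifitm1. In the 5 matching files alone they were 0.43 and -0.68, with 1 blood array. Ifitm2 was 0.22 to 0.4 and Ifitm3 0.6 to 0.71 in the 4 settings, opposite in sign to the table. The differences from all 8 scanner files thus depend on blood files that are not the arrays of the table. On the 5 matching arrays the table gave 0.53 for Ifitm6 and -0.59 for Ifitm1. Differences over the matching arrays rest on blood 4 as the only blood array.

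**Figure D4:**
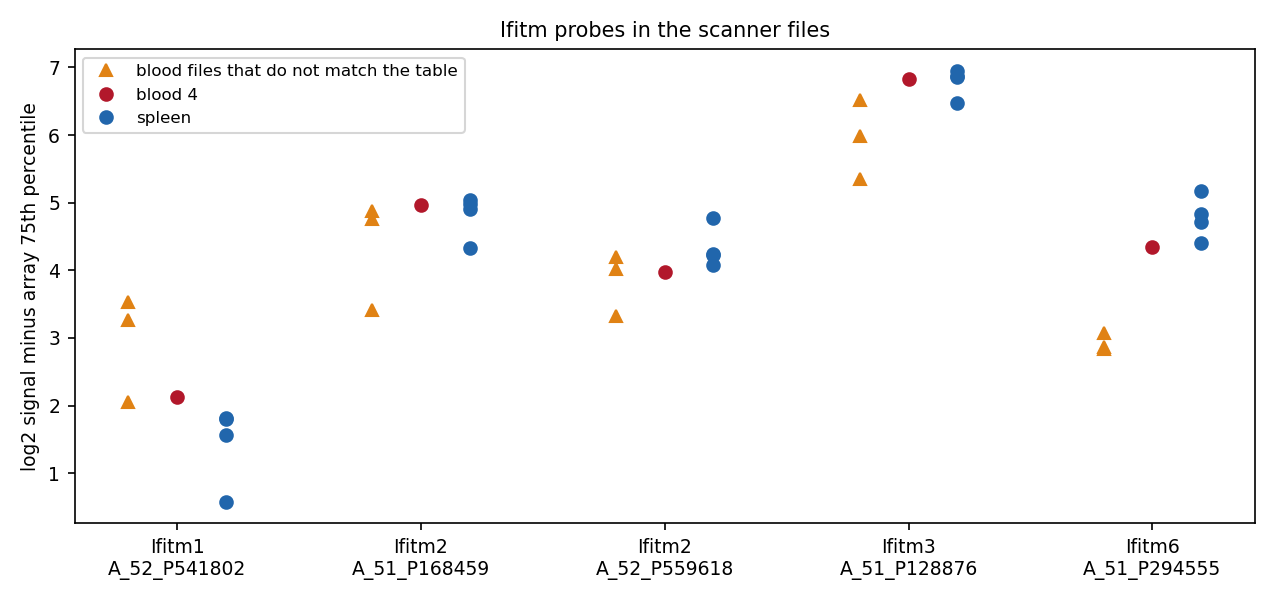
Log2 signal minus the array's 75th percentile (vertical axis) of the 5 Ifitm probes in each scanner file: 3 blood files that do not match the table (orange triangles), blood 4 (red) and 4 spleen files (blue). For Ifitm6 the triangles, from 2.84 to 3.08, lie below all 5 other files, and blood 4, at 4.35, lies next to the lowest spleen file at 4.4. For Ifitm1 blood 4 is the highest of the matching files at 2.12.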

How the data were processed

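RNA of sorted Ly-6C-high monocytes (4 blood, 4 spleen) was measured on 1-colour Agilent arrays. Spot intensity files came from Feature Extraction 9.5.1.1 with local background subtraction, per the file headers. The authors also deposited log2 values in a table. Per the submitters' processing notes they used limma. Its scale and centring are not stated. Every column has a median of 7.31 and, for the 5 arrays whose scanner file matches, ranks probes as the file does, with 583 to 1426 empty cells a column. Scanner files with a rank correlation under 0.99 with their column were treated as other arrays.

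The table was the main source. Probes were named by accession through RefSeq (22951 of 41174, 55.7%) or kept the array's name. At or above 6.8, at least 95% of the probes in each step of 0.1 were well above background on the matching arrays (26525 to 29573 probes each). Probes reaching 6.8 on at least 4 arrays with at least 3 values per tissue were kept, and each gene took its brightest probe, leaving 18266 genes. The number of arrays limits the precision. Tissues were compared as unpaired groups with limma 3.58.1 (lmFit, eBayes) in R 4.3.3 with the data.table package, version 1.17.8, adjusted by Benjamini-Hochberg at 0.05, and for members by exact two-sided permutation tests. The fit was tested on simulated data. Python 3.11.15 with pandas 2.3.3, numpy 2.4.6 and matplotlib 3.10.9 did the rest.

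Alternatives were scanner signals scaled to the 75th percentile, to the median, or by normexp (offset 50) and quantiles, the 5 matching arrays, other probe filters and summaries, intensity trend, array weights, replicate and slide blocks, and leaving out each sample. Admitting genes with at least 1 value per tissue, and the pair on a shared slide, were added after the data were examined. Named genes are the members and other Ifitm genes, the 3 largest differences each way in a list, and the 5 genes most correlated with a member over 8 arrays. Receptor chains, and marker genes that check the sort, were named besides. The members, lists and rules were chosen with earlier results of these data known.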

Additional observations from a re-analysis of the deposited data

Results flagged for a closer look

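In 2 of the 12 groups of 4 values examined, 1 sample stood apart from the other 3 by more than Dixon's 95% critical value for the gap over the range, and chance alone gives about 1 in 20. For the second Ifitm2 probe, A_52_P559618, blood 4 at 12.73 stood below the other blood samples (13.24 to 13.3), with a gap of 0.89 of the range. For the LOC384622 probe, blood 3 at 12.25 stood above the other blood samples (11.77 to 11.85), with a gap of 0.83. These are the probes that share 27 bases, and the samples that stood apart were different ones. The Ifitm2 probe at the gene's own locus had 3 blood values, so only its spleen group was examined.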

How the results depend on the processing

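In none of the alternatives did Ifitm1, Ifitm2 or Ifitm6 pass the adjusted threshold. Ifitm6 was higher in spleen in 23 of 23 alternatives, Ifitm1 lower in 22 of 23 and Ifitm2 lower in 16 of 24. Leaving out 1 sample gave 0.36 to 0.62 for Ifitm6, -0.34 to 0.1 for Ifitm1 (0.1 without spleen 2) and -0.32 to 0.08 for Ifitm2 (0.08 without spleen 3). Ifitm2 reversed to 0.02 with the filter on all 8 arrays, with the mean over probes and for its other probe alone. It reversed to 0.31 with all scanner files at the 75th percentile, 0.22 with normexp and quantiles, 0.4 with median scaling and 0.29 with slide as a random block. In the same 4 settings Ifitm3 was 0.62, 0.67 (unadjusted p 0.0444, limma adjusted p 0.536), 0.71 and 0.6. The cause was not tested.

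The count of genes past the threshold, 0 as reported (992 at an unadjusted p under 0.05), was 4, 4, 5 and 9 in those 4 scanner settings. It was 1 with the filter on all 8 arrays, 7 with the mean over probes, 8 when the variance followed intensity, 9 when arrays were weighted, and 0 to 3 with 1 sample left out (3 without blood 1 or spleen 1). Same-numbered samples had correlations of 0.090 to 0.141, above every pair of different number (-0.116 to 0.034), a hint of pairing from the data and not the design. The main test stayed unpaired because no label ties a sample number to a mouse. With the replicate block, the count was 1 as a fixed term and 13 as a random term at a correlation of 0.21. Ifitm6 stayed at 0.46 in both (limma unadjusted p 0.0682 and 0.0638, adjusted p 0.791 and 0.692). The single spot of most members, the empty cells of Ifitm3 and 4 arrays a tissue limit the precision.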
